A study of Pimephales promelas with 15 samples.

Results

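Hexabromocyclododecane (HBCD) is a brominated flame retardant that dissolves in fat and builds up in fish. A set of 118 transcript identifiers whose level stood apart at the lower of 2 profiled doses of it is described here, in young fathead minnows (Pimephales promelas), which are freshwater fish common in toxicity tests. The members were chosen by their measured values. An identifier qualified if an unequal-variance test on log2(CPM + 1), with CPM the estimated counts per mega-count of a library's total, gave an unadjusted value below 0.02 for low HBCD against solvent control and for low against medium HBCD, in the same direction, and 0.05 or more for medium HBCD against solvent control. Identifiers also had to lie on at most 2 rows of the count table, to average from 1 to below 1000 CPM over the 15 libraries, and to have a pooled standard deviation within groups below 1 on the log2(CPM + 1) scale. Of 14279 identifiers, 12400 met these last limits and are called candidates, and 118 of them were members. At low HBCD 96 members were higher and 22 were lower.

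Messenger RNA was sequenced from whole-body pools of 20 larvae taken 7 days after fertilization, called embryos in some labels and larvae in others, with 5 libraries a group. The solvent control parents ate food from which ethanol had been evaporated, and HBCD in their larvae was below the detection limit. The parents of the low HBCD larvae ate 11.5 mg HBCD per kg food and the larvae held 0.576 mg per kg. The parents of the medium HBCD larvae ate 36.4 mg per kg food and the larvae held 1.77 mg per kg. Feeding lasted 49 days, all embryos developed in clean water, and the high dose was not analysed here. No label ties a pool to its parents, so pools of a group may share them. The p-values weigh group differences against variation between pools, which may be technical and may leave out variation between parents.

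A fish mother loads her eggs with yolk lipid, and fat-soluble compounds such as HBCD pass into the egg with it, so that the embryo is exposed from within while it lives on the yolk. A response that appears at a low dose and not at a higher one is called non-monotonic, and such dose curves are a known concern for compounds that act on hormone systems. A whole-larva pool mixes every tissue, so fewer cells of a type and less RNA per cell cannot be told apart in any value below. The identifiers have the form of UniProt or RefSeq protein accessions, the files pair none of them with a gene name, and 0 of the 14279 matched the reference table of 64593 genes. No member is therefore given a gene name or a role, no pathway or marker list could be counted, and the labelled tissue could not be checked against markers.

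Library totals were 13.03 to 58.4 mega-counts (M) of estimated counts in solvent control, 12.8 to 35.2 M in low HBCD and 12.6 to 26.4 M in medium HBCD, with solvent control replicates D and E the deepest at 49.3 and 58.4 M. The 10 most abundant identifiers took 7.79% to 9.22% of counts in solvent control, 6.49% to 9.28% in low HBCD and 7.71% to 9.48% in medium HBCD, lowest in low HBCD replicates C and D at 6.49% and 7.09%. The smallest chi-square per degree of freedom within a group was 13.1, between medium HBCD replicates B and C. Solvent control replicates D and E gave 16.4 at far greater depth. The measure grows with depth, so it does not rank how alike the pairs were. All pairs lay far above the 1 of pure sampling noise, and no library was treated as a repeat of another. This cannot show whether pools of a group were technical repeats.

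The selection left few identifiers at each step. Among the 12400 candidates, 453 (3.65%) passed the 0.02 limit for low HBCD against solvent control and 496 (4%) passed it for low against medium HBCD. Both limits were passed by 127, all in the same direction in both, and 9 of these were dropped because medium HBCD differed from solvent control. Read for the group that stands apart, the same rule gave 48 identifiers for solvent control (22 higher and 26 lower), 118 for low HBCD and 64 for medium HBCD (17 higher and 47 lower). These 3 counts are on library totals, draw on the same 15 libraries and were not tested against each other. They lay closer together under the other scaling given below. The 5 members just inside the 0.02 limit had differences of 0.22 to 1.1 in size between low HBCD and solvent control on the log2(CPM + 1) scale, and the 5 candidates just outside it had 0.12 to 0.91. The 5 members just inside the limit on medium HBCD against solvent control differed there by 0.08 to 0.32 in size, and the 5 just outside it by 0.07 to 0.24. The sizes on either side of each limit overlapped.

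Which identifiers met the rule, and how many of them were higher, depended on how libraries were scaled. On library totals, 96 of 118 members (81.4%) were higher at low HBCD. With TMM factors, which rescale each library so that most identifiers do not shift, the same rule gave 73 identifiers, of which 31 (42.5%) were higher and 42 were lower. Read with TMM factors for the other groups, the rule gave 52 identifiers for solvent control (33 higher and 19 lower). For medium HBCD it gave 62 (25 higher and 37 lower). Over all candidates the median log2(CPM + 1) difference of low HBCD from solvent control was 0.05 on library totals and 0.005 with TMM factors, and that from medium HBCD was 0.07 and 0.009. On library totals the middle of the table thus lay above 0 in both low HBCD comparisons, with 7733 of the 12400 candidates above 0 and 4667 below 0 against solvent control. TMM factors were 0.983 to 0.999 in solvent control, 0.993 to 1.043 in low HBCD and 0.980 to 0.985 in medium HBCD. No member changed sign between the scalings. All 22 lower members and 30 of the 96 higher ones met the rule under both scalings. Of the 66 higher members that met it on library totals alone, 40 missed the limit against solvent control with TMM factors, 47 missed it against medium HBCD and 21 missed both. Their median difference of low HBCD from solvent control was 0.23 on library totals and 0.18 with TMM factors, against 0.35 and 0.31 for the 30 that met the rule under both. Low HBCD replicates C and D had the lowest share of the top 10 identifiers and the highest TMM factors, 1.043 and 1.042. Low HBCD replicate A had a share of 7.78% and a factor of 1.028. Solvent control replicate B and medium HBCD replicate E had similar shares, 7.79% and 7.71%, with factors of 0.983 and 0.984. The part of this share in the shift was not tested.

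**Figure D1:**
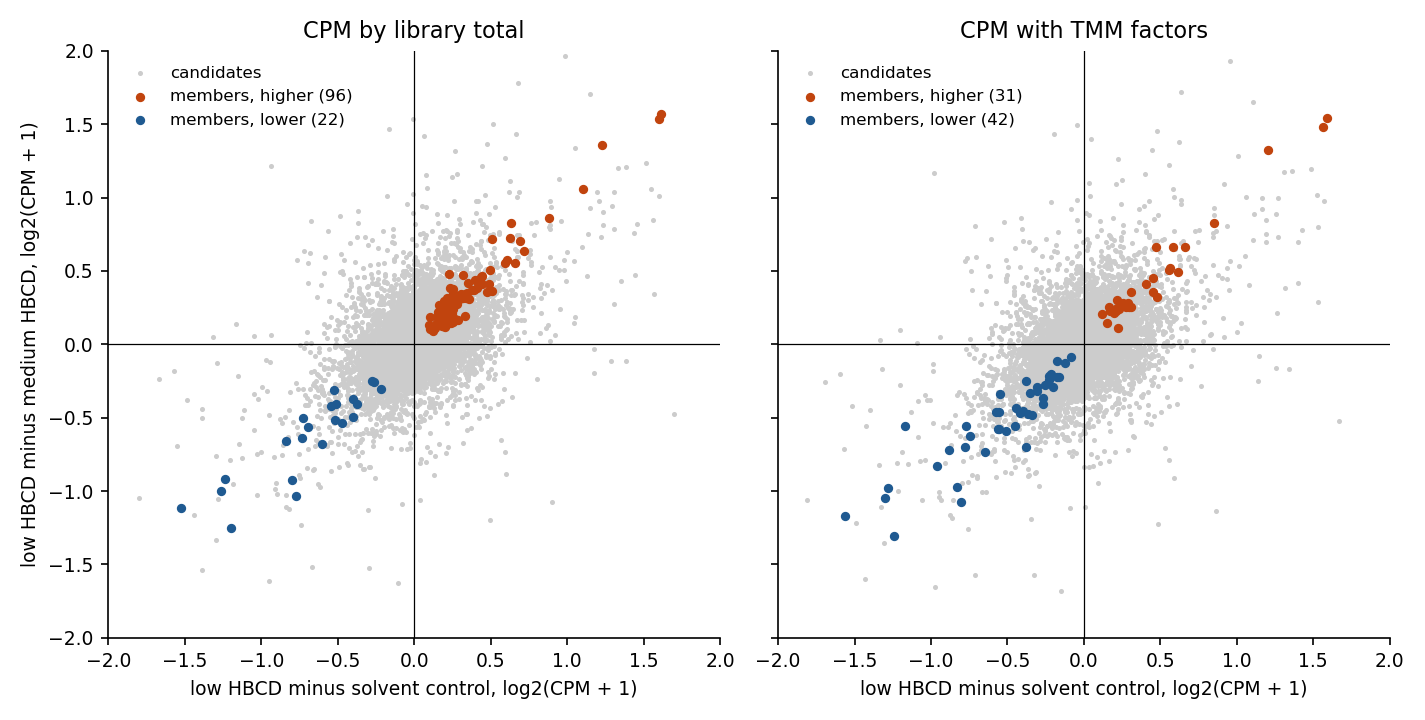
Difference of low HBCD from solvent control (horizontal axis) and from medium HBCD (vertical axis) in mean log2(CPM + 1) for all 12400 candidates in grey, on library totals at the left and with TMM factors at the right, with the identifiers that met the rule under that scaling in red (higher) and blue (lower). The 96 higher members of the left panel crowd between 0.1 and 0.5, against 31 in the right panel, and the lower ones number 22 at the left and 42 at the right; 9 candidates outside ±2 are not drawn in either panel.

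The 2 members in each direction whose larger unadjusted edgeR p over both low HBCD comparisons was smallest are given by identifier; they were chosen for this pattern, so their values describe it. XP_009302933.1 was the first of the higher members. Its level was 0.756, 0.593, 0.691, 0.71 and 0.736 CPM in solvent control replicates A to E, 1.65, 2.26, 2.97, 1.70 and 2.20 CPM in low HBCD, and 0.555, 1.29, 0.713, 0.643 and 0.483 CPM in medium HBCD. All 5 low HBCD libraries lay above all 10 others, and medium HBCD replicate B came nearest to them. The means were 2.16 ± 0.53 CPM in low HBCD and 0.697 ± 0.063 CPM in solvent control (SD, n = 5 each). In the edgeR fit of all 13283 identifiers tested, its log2 fold change was 1.57 (SE 0.31, adjusted p = 0.0943) for low HBCD against solvent control and 1.49 (SE 0.31, adjusted p = 0.116) for low against medium HBCD, so neither passed the 0.05 threshold there. Each comparison passed it in 2 of 22 alternative fits. In the fit by DESeq2 the adjusted p was 0.000541 against solvent control and 0.00161 against medium HBCD. The level rests on few reads, with 8 to 78 estimated counts a library, and all 15 of these were whole numbers.

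XP_017206857.1 was the other higher member. It had 2.72, 7.05, 5.07, 6.80 and 6.88 CPM in solvent control replicates A to E, 18.8, 16.0, 31.5, 27.2 and 8.39 CPM in low HBCD, and 2.84, 8.42, 8.16, 6.43 and 4.74 CPM in medium HBCD. Low HBCD replicate E stood well below the other 4 low HBCD libraries and just under medium HBCD replicate B, so the groups overlapped there, while all low HBCD libraries exceeded the solvent controls. The means were 20.4 ± 9.2 CPM in low HBCD and 5.70 ± 1.85 CPM in solvent control (SD, n = 5 each). The edgeR log2 fold change was 1.78 (SE 0.37, adjusted p = 0.116) against solvent control, a 3.42-fold higher level, and 1.68 (SE 0.37, adjusted p = 0.132) against medium HBCD. Neither passed in that fit, and each comparison passed in 2 of 22 alternative fits. By DESeq2 the adjusted p was 0.000751 against solvent control and 0.00215 against medium HBCD.

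Q08BL7 was the first of the lower members. It had 11.01, 14.9, 23.8, 20.4 and 23.2 CPM in solvent control replicates A to E, 6.63, 6.71, 9.49, 8.77 and 5.37 CPM in low HBCD, and 14.7, 28.2, 24.3, 14.7 and 15.2 CPM in medium HBCD. Every low HBCD library lay below every other library, and solvent control replicate A was the closest to them. The means were 7.40 ± 1.69 CPM in low HBCD and 19.4 ± 6.4 CPM in medium HBCD (SD, n = 5 each). It fell below medium HBCD, with an edgeR log2 fold change of -1.44 (SE 0.25, adjusted p = 0.0355). Against solvent control the log2 fold change was -1.38 (SE 0.25, adjusted p = 0.0729 by edgeR). That comparison passed in 3 of 22 alternative fits, with adjusted p of 0.000108 (by DESeq2) to 0.491 over them. The call against medium HBCD was kept in 7 of 22 alternative fits, with log2 fold changes of -1.54 to -1.27 and adjusted p of 2.06e-05 to 0.113 over them.

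R4GEK0 had the smallest spread of the 4. It had 192, 201, 173, 176 and 193 CPM in solvent control replicates A to E, 142, 116, 136, 142 and 119 CPM in low HBCD, and 143, 202, 225, 198 and 179 CPM in medium HBCD. Medium HBCD replicate A, at 142.6 CPM, lay just above the highest low HBCD library at 142.3 CPM, and the other 9 libraries were at 173 CPM or more. The means were 131 ± 13 CPM in low HBCD and 189 ± 31 CPM in medium HBCD (SD, n = 5 each). It also fell below medium HBCD, with an edgeR log2 fold change of -0.59 (SE 0.10, adjusted p = 0.0355). Against solvent control the log2 fold change was -0.56 (SE 0.10, adjusted p = 0.0729 by edgeR). That comparison passed in 3 of 22 alternative fits, with adjusted p of 0.000108 (by DESeq2) to 0.390 over them. The call against medium HBCD was kept in 9 of 22 alternative fits, with log2 fold changes of -0.68 to -0.53 and adjusted p of 1.55e-05 to 0.172 over them. The estimated counts of Q08BL7 and of R4GEK0 were not whole in any library, as estimates are where reads match several targets, so their levels are uncertain to that extent.

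**Figure D2:**
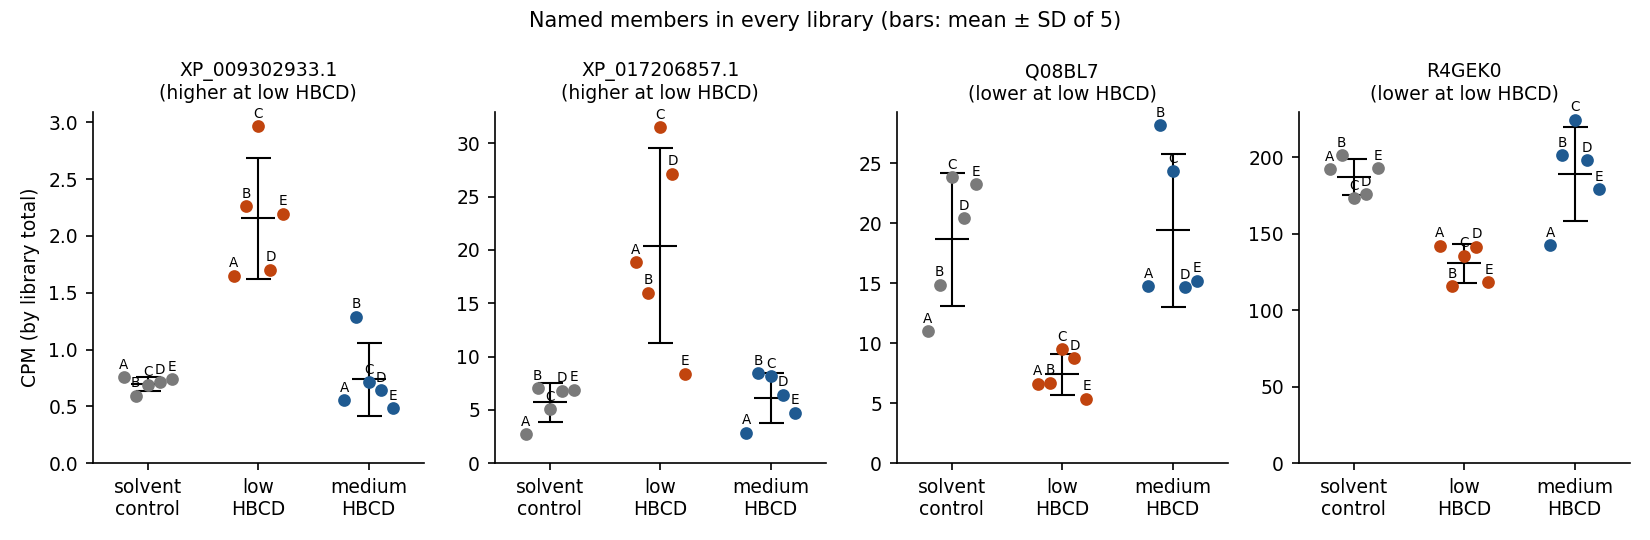
CPM by library total of the 4 members given by identifier, 1 panel each, with a point per library lettered by its replicate, in solvent control, low HBCD and medium HBCD; horizontal bars are the mean of 5 libraries and whiskers ± 1 SD, and each vertical axis starts at 0. XP_009302933.1, Q08BL7 and R4GEK0 show no overlap of low HBCD with the other groups, though medium HBCD replicate A of R4GEK0 sits barely above the highest low HBCD point. Low HBCD replicate E of XP_017206857.1 reaches the medium HBCD points.

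The medium HBCD level of these 4 was close to that of solvent control, with intervals that still allow a change. The rule asked for no difference between these groups, so this closeness follows in part from the choice of members. The edgeR log2 fold change of medium HBCD against solvent control and its 95% interval were 0.08 (-0.58 to 0.74) for XP_009302933.1, 0.10 (-0.68 to 0.88) for XP_017206857.1, 0.06 (-0.46 to 0.58) for Q08BL7 and 0.03 (-0.19 to 0.25) for R4GEK0. All 4 also met the rule with TMM factors. When each library was left out in turn, XP_009302933.1 and Q08BL7 met it in all 15 sets, XP_017206857.1 in 13 and R4GEK0 in 12. Without solvent control replicates D and E together, Q08BL7 no longer met it and the other 3 did. These 4 were chosen for small p in the contrasts that the rule used. How often they met it therefore follows in part from that choice.

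Most of the 96 higher members differed little. Their low HBCD level exceeded solvent control by 0.10 to 1.61 on the log2(CPM + 1) scale, with a median of 0.26 and quartiles of 0.20 and 0.36. The difference from medium HBCD had a median of 0.29 and ranged over 0.09 to 1.57. In 82 of the 96 the difference from solvent control was under 0.5, and in 4 it was 1 or more. On the edgeR scale the median fold of low HBCD was 1.16 over solvent control and 1.18 over medium HBCD. The largest of these folds, 9.62 over solvent control, belongs to a member that averaged 3.28 ± 1.97 CPM in low HBCD and 0.362 ± 0.764 CPM in solvent control (SD, n = 5 each). Its estimated counts in solvent control replicates A, C and E rounded to 0. Low HBCD overlapped both other groups in this member. Low HBCD replicate C had 0.46 CPM, below solvent control replicate B at 1.73 CPM and medium HBCD replicate D at 1.36 CPM. A small mean shift could qualify because these members varied little, with a median standard deviation within groups of 0.11 against 0.21 over all candidates.

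The 22 lower members, chosen on library totals like the higher ones, differed more. Their low HBCD level was below solvent control by differences of -1.52 to -0.22, with a median of -0.57, and below medium HBCD by -1.25 to -0.25, with a median of -0.53. In 7 of the 22 the difference from solvent control was under 0.5 in size, and in 4 it was 1 or more. The median edgeR fold was 0.585 against solvent control and 0.627 against medium HBCD. Their median standard deviation within groups was 0.22, close to that of all candidates. With TMM factors 20 further identifiers met the rule as lower ones and 1 further as a higher one. The 20 had a median difference of low HBCD from solvent control of -0.21 on library totals and -0.26 with TMM factors. The 1 had 0.22 and 0.17. The contrast in size between the directions is thus given only for members chosen on library totals.

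Low HBCD stood clear of all 10 other libraries for 25 of the 96 higher members (26.04%) and 12 of the 22 lower ones (54.5%). Among all candidates, 0.363% lay above and 0.121% below all 10 others; the rule used the same values, so the excess supports nothing. Against single groups, low HBCD lay clear of solvent control in 45 higher and 14 lower members, beside 1.5% of candidates above and 0.54% below it. It lay clear of medium HBCD in 46 higher and 15 lower members, beside 1.81% of candidates above and 0.556% below. With TMM factors the members that stood clear of all 10 others numbered 7 of the 96 higher and 13 of the 22 lower ones, with 0.0887% of candidates above and 0.161% below. On library totals, all 5 low HBCD libraries lay on the member's side of the mean of the other 10 in all 96 higher and all 22 lower members. This was not counted over all candidates, and the rule used the same values, so it supports nothing either.

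**Figure D3:**
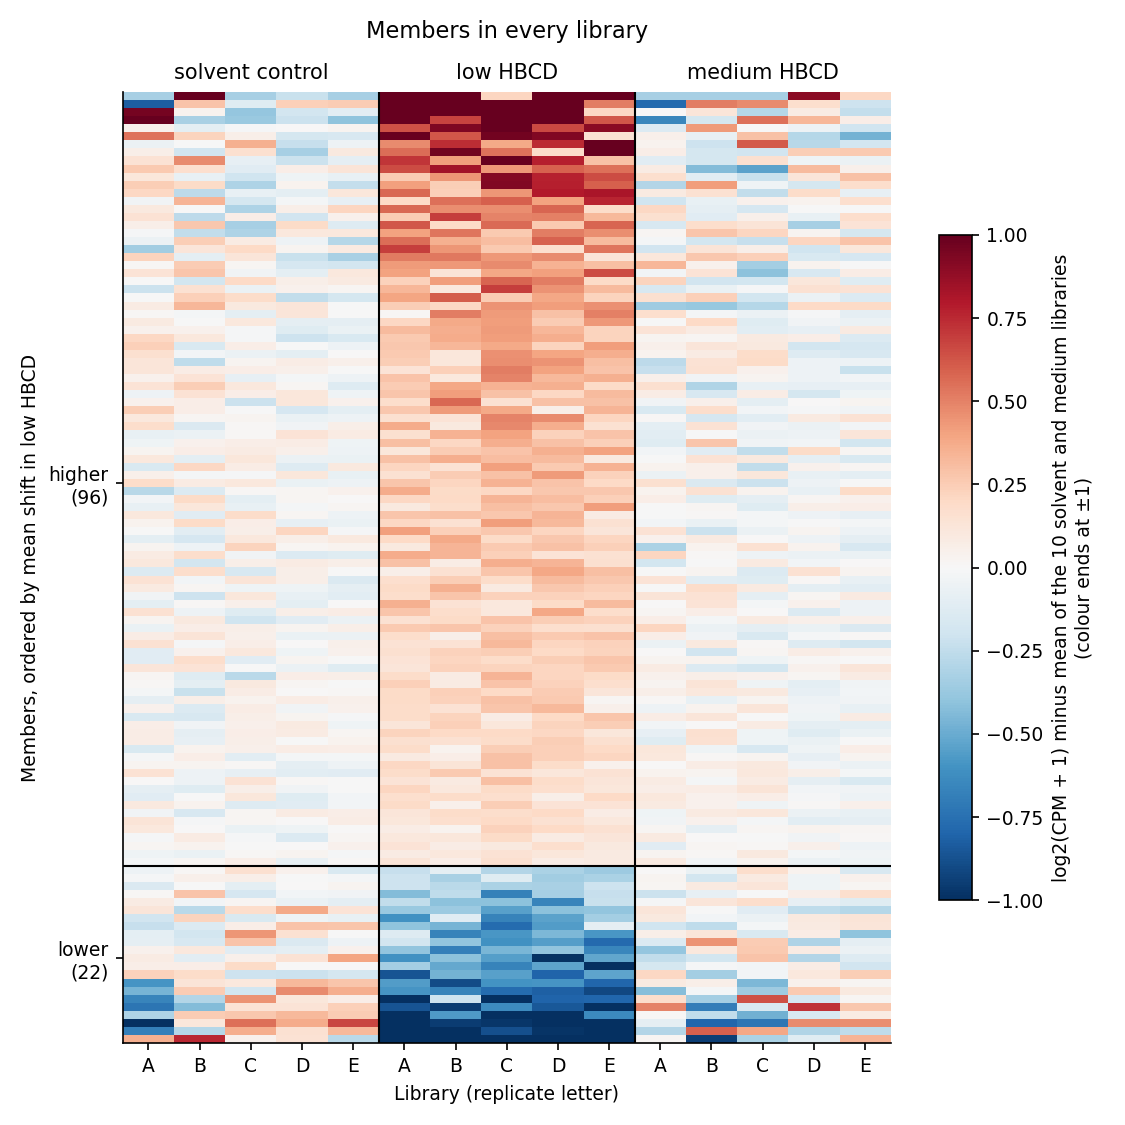
Every member (rows, ordered by mean shift at low HBCD, 96 higher above the line and 22 lower below it) in each of the 15 libraries (columns, by group and replicate letter), coloured by log2(CPM + 1) minus the mean of the 10 solvent control and medium HBCD libraries, with colours that end at ±1. The low HBCD block is red for all higher and blue for all lower members, mostly pale in the higher ones, whose median difference from solvent control was 0.26.

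Low HBCD libraries contributed unequally. The median shift of the higher members from the mean of the 10 other libraries was 0.23, 0.24, 0.30, 0.29 and 0.24 in low HBCD replicates A to E, against -0.006 to 0.042 in solvent control and -0.034 to 0.030 in medium HBCD. Replicates C and D, the most shifted, were also the deepest low HBCD libraries and those with the smallest top 10 share, and the part of these in the result was not tested. Replicate C was the most extreme low HBCD library in 40 of the 96 higher members, and the other 4 replicates were so in 10 to 18. For the lower members the median shift was -0.50, -0.47, -0.62, -0.58 and -0.61 in low HBCD replicates A to E, against -0.095 to 0.125 in solvent control and -0.046 to 0.039 in medium HBCD. No single replicate led them, with 2 to 6 of the 22 most extreme in each. Over all candidates the median shift was 0.020 in low HBCD replicate B to 0.078 in replicate C, and -0.012 to 0.020 in the other 10 libraries.

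**Figure D4:**
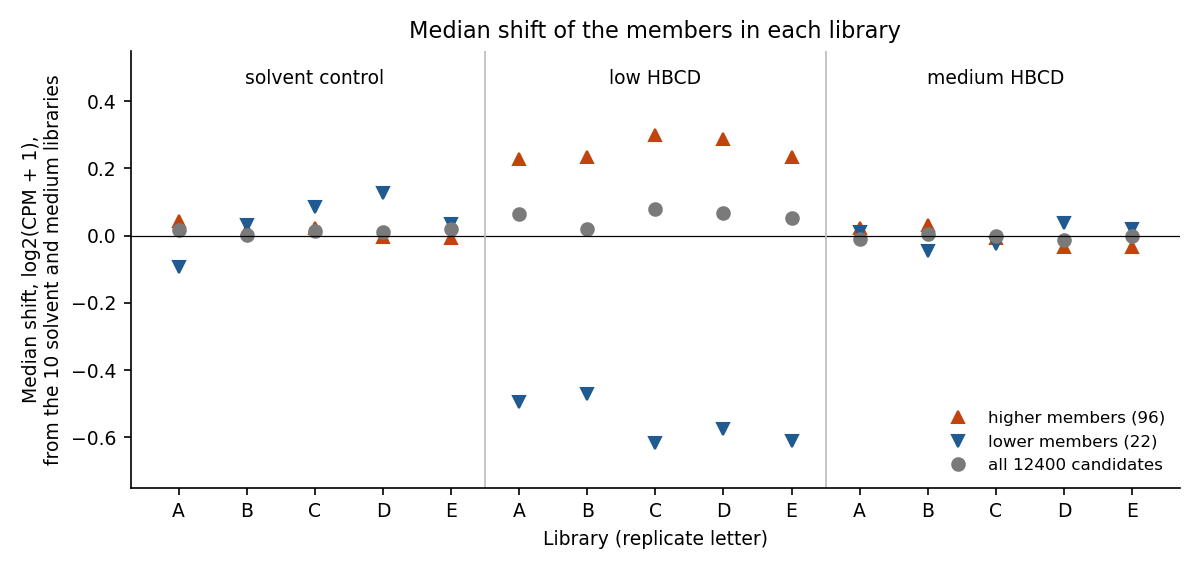
Median shift of the 96 higher members (red triangles), the 22 lower members (blue triangles) and all 12400 candidates (grey points) in each library, as log2(CPM + 1) minus the mean of the 10 solvent control and medium HBCD libraries. Higher members sit at 0.23 to 0.30 in low HBCD and near 0 elsewhere, lower members at -0.62 to -0.47, and the candidates as a whole lie slightly above 0 in low HBCD, up to 0.078.

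Together the higher members held 0.651% to 0.682% of all counts in solvent control libraries, 0.772% to 0.836% in low HBCD and 0.647% to 0.690% in medium HBCD. The lower members held 0.0832% to 0.0943% in solvent control, 0.0572% to 0.0626% in low HBCD and 0.0807% to 0.0910% in medium HBCD. Neither sum overlapped between low HBCD and the other groups, which the choice of members fixes.

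The quasi-likelihood test of edgeR, fitted on all 15 libraries with adjustment over all 13283 identifiers, called few members. All 118 were among those tested. For low HBCD against solvent control, 3 members passed an adjusted p of 0.05, all lower ones, beside 0.0527% (7) of all identifiers tested; an unadjusted p below 0.05 was reached by 96 members, 74 higher and 22 lower, beside 7.65% of all tested. For low against medium HBCD, 5 members passed, again all lower ones, beside 0.151% (20) of all tested, and 93 reached an unadjusted p below 0.05, 71 higher and 22 lower, beside 8.81%. The same contrasts chose the members, so their counts are read as a description and not set against those shares. No higher member passed in either comparison, with smallest adjusted p of 0.0943 against solvent control and 0.116 against medium HBCD by edgeR. DESeq2 called 24 members in all against solvent control, beside 0.692% (97) of the 14017 identifiers it tested, and 32 against medium HBCD, beside 1.06% (148). Of the 7 identifiers that edgeR called against solvent control, those that were no members were 3 on more than 2 rows and 1 for which medium HBCD and solvent control differed. Of the 20 called against medium HBCD, 9 missed the 0.02 limit in a low HBCD comparison, 4 differed between medium HBCD and solvent control and 2 lay on more than 2 rows.

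For medium HBCD against solvent control edgeR called 0 members, also 0 at an unadjusted p below 0.05, beside 0.0226% (3) of all tested called and 6.29% below the unadjusted limit. DESeq2 called 0 members with 3 below the unadjusted limit, beside 0.742% and 7.13% of all it tested, and limma-voom called 0 with 2, beside 0.0903% and 7.2%. The rule asked for no difference here, and a missed threshold does not show that the groups are alike. The differences of medium HBCD from solvent control were -0.25 to 0.15 on the log2(CPM + 1) scale in higher members, with 42 above and 54 below 0, and -0.41 to 0.26 in lower members, with 9 above and 13 below 0. Both comparisons with solvent control share its libraries. The 95% interval of the medium HBCD fold change excluded the estimate for low HBCD against solvent control in all 22 lower members and in 70 of the 96 higher ones. For the remaining 26 higher members the interval around medium HBCD still held a change as large as that at low HBCD. The rule asked for a difference at low HBCD and for none at medium HBCD in these same libraries. Such exclusions therefore follow in part from the choice of members and support nothing about the dose. The median half-width of this interval was 0.34 in lower and 0.17 in higher members on the log2 scale, and over all members it ran from 0.10 to 2.997.

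The authors' deposited table of low HBCD against solvent control lists 99 identifiers, of which 24 are members, 8 higher and 16 lower, all in the same direction. That is 20.3% of the members and 24.2% of the table, and 0.669% of all candidates are in it; the table and the rule used the same contrast. The log2 fold changes of these 24 in the authors' deposited table were 0.23 to 1.78 in size, with a median of 0.69. XP_009302933.1, XP_017206857.1, Q08BL7 and R4GEK0 are all among them. The authors' deposited table of medium HBCD against solvent control lists 105 identifiers, and 0 are members. The rule asked for no difference in that comparison, so this follows in part from the choice of members and supports nothing. The share of all candidates in that table was not counted.

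Members were spread over the range of levels. Among higher members 21 averaged 1 to 10 CPM, 54 averaged 10 to 100 CPM and 21 averaged 100 to 1000 CPM, with median differences of low HBCD from solvent control of 0.49, 0.25 and 0.20 on the log2(CPM + 1) scale in these classes. Among lower members the classes held 7, 14 and 1, with differences of -0.54, -0.65 and -0.52. The rule asks for a larger difference where pools vary more, and spread was not compared between the classes. These medians therefore do not show that scarcer transcripts responded more. The shares of all candidates in the classes were 22.4%, 62.3% and 15.3%, beside 21.9%, 56.2% and 21.9% of the higher and 31.8%, 63.6% and 4.5% of the lower members. CPM is not divided by transcript length, so these classes rank abundance in the library and not levels per transcript.

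Forms of the identifiers occurred among members in shares near those among candidates. UniProt forms made up 71 members (60.2%, beside 58.5% of candidates), RefSeq NP_ forms 20 (16.9%, beside 15.2%) and RefSeq XP_ forms 27 (22.9%, beside 26.4%). An XP_ prefix marks a protein predicted by a gene model and NP_ a known one. Members on 2 rows numbered 6 (5.08%, beside 4.86%), and in 2 of these 6 both rows moved in the direction of the sum. Estimated counts were whole in all 15 libraries for 47 members (39.8%, beside 33.4%), which is what reads matching a single target give, and not whole in any library for 44 (37.3%, beside 45.6%). The median difference of low HBCD from solvent control was 0.26 in the 37 higher members with whole counts and 0.25 in the other 59, and -0.49 in the 10 lower members with whole counts and -0.73 in the other 12.

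Membership changed with single libraries. Leaving out each of the 15 libraries in turn gave 63 to 168 identifiers, of which 56 to 84 were among the 118. The count moved by more than 1.5 times without solvent control replicate D (66), without solvent control replicate E (63) and without low HBCD replicate D (71). Without solvent control replicates D and E together the rule gave 39 identifiers, 27 higher and 12 lower, of which 27 were among the 118. A member met the rule in a median of 9 of the 15 sets, 14 members (11 higher and 3 lower) met it in all 15, and 52 met it in 10 or more.

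**Figure D5:**
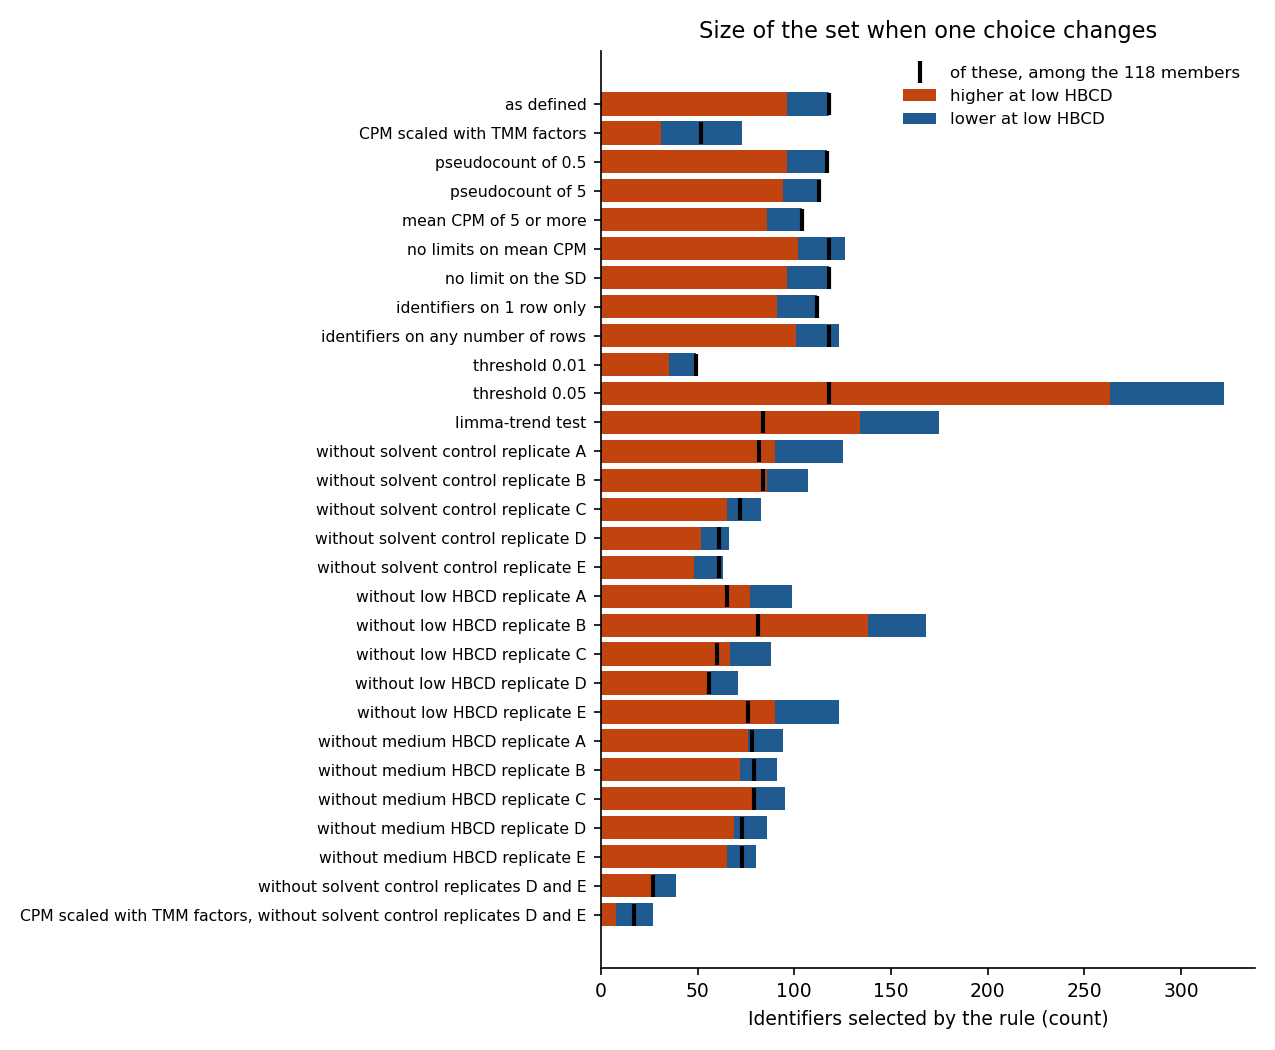
Number of identifiers that met the rule as defined and when one choice or the libraries used were changed, split into higher (red) and lower (blue) at low HBCD, with a black mark at the number that were among the 118 members. The count ran from 27 with TMM factors and without solvent control replicates D and E to 322 at a limit of 0.05, and the red share is smallest in the 2 bars with TMM factors.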

How the data were processed

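The members and lists were chosen with earlier results of these data known. Trim Galore, kallisto and DESeq2 are named, without versions, per the submitters' processing notes; their settings and the transcript reference are not given in sources used here. What the authors deposited are estimated counts, not normalized, on 15551 rows for 15 libraries, and columns were assigned to samples by group and replicate letter. Per the file headers, the authors' deposited comparison tables hold log2 fold changes and adjusted p-values of listed identifiers. Estimated counts of rows sharing an identifier were summed. The rule used CPM by library total with a pseudocount of 1. For the tests, sums were rounded to whole numbers and fitted with the edgeR 4.0.16 quasi-likelihood F test in R 4.3.3 (TMM, filterByExpr with groups, robust, no covariates, 13283 identifiers, Benjamini-Hochberg threshold 0.05), tested on simulated data. The common biological coefficient of variation was 0.273. Between 37.0% and 42.8% of values in a library were whole within 1e-06. Standard errors come from the F statistic. An identifier that shares sequence with another has an uncertain count. Alternatives were DESeq2 1.42.0 and its size factors, limma-voom and limma-trend (limma 3.58.1), no filter, other limits of the rule, a replicate block, 2-group fits and leaving out libraries. Identifiers are given for the 2 members in each direction with the smallest value of the larger unadjusted edgeR p of both low HBCD comparisons. Gene lists needing symbols were not counted.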

Additional observations from a re-analysis of the deposited data

Results flagged for a closer look

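In medium HBCD, XP_009302933.1 had 1.29 CPM in replicate B, and the other 4 libraries of that group had 0.483 to 0.713 CPM. The gap to the nearest of them was 0.715 of the range of the group, past the limit of 0.71 for 5 libraries. This was 1 of 24 sets of libraries searched, and chance passes the limit in about 1 of 20 sets.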

How the results depend on the processing

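The rule gave 118 identifiers as defined, 73 with TMM factors, 49 at a limit of 0.01, 322 at a limit of 0.05, 39 without solvent control replicates D and E, and 27 without those 2 and with TMM factors, a combination chosen after seeing the data. Leaving out each library gave 63 to 168. Other pseudocounts, CPM limits, SD limits, row limits and the limma-trend test gave 104 to 175, within 1.5 times of the main count. Of the 175 with the limma-trend test, 84 were among the 118 members. The other settings in this list kept 104 to 118 of them. Members called for low HBCD against solvent control numbered 3 in the edgeR fit (of 7 identifiers called), 24 by DESeq2 (of 97), 9 by limma-voom (of 26), 0 in the 2-group fit (of 0), 0 without solvent control replicates D and E (of 1), and 0 to 8 when each library was left out. Members called for low against medium HBCD numbered 5 (of 20), with 32 by DESeq2 (of 148), 0 in the 2-group fit (of 9), 1 without solvent control replicates D and E (of 13), and 0 to 5 when each library was left out. The cause of these differences was not tested. Among the fits that left out 1 library, the count against solvent control was within 1.5 times of 3 without low HBCD replicate B, low HBCD replicate E or medium HBCD replicate A, and not without any of the other 12. Against medium HBCD it was within 1.5 times of 5 without solvent control replicate A, solvent control replicate B, low HBCD replicate E or medium HBCD replicate B, and not without any of the other 11. With DESeq2 size factors the counts were 3 (of 7 identifiers called) against solvent control and 7 (of 22) against medium HBCD. Without the filter they were also 3 (of 7) and 7 (of 22). By limma-voom the count against medium HBCD was 6 (of 18), and all of these were within 1.5 times. When each library was left out, edgeR called 0 to 18 of all identifiers against solvent control and 9 to 22 against medium HBCD. Members called for medium HBCD against solvent control stayed at 0 under every alternative run, beside 0 to 104 of all identifiers. The rule asked for no difference in this comparison, so these counts of 0 follow in part from the choice of members and support nothing. No log2 fold change in a low HBCD comparison changed sign, in the 4 members given by identifier or in any other of the 118. The members were chosen on these differences, so this supports nothing.

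A fit with the replicate letter as a block called 0 members in either low HBCD comparison, beside 1 and 4 of all 13283 identifiers against solvent control and medium HBCD. At an unadjusted p below 0.05 it had 92 and 91 members, beside 997 and 1154 of all identifiers. Same-letter libraries correlated at -0.13 to 0.15 over 15 pairs in their deviations from the group means, with a median of 0.037 and 1 above 0.1. Libraries of other letters correlated at -0.16 to 0.23 over 60 pairs, with a median of -0.004 and 8 above 0.1. No clear pairing by letter was seen. The labels do not say whether letters mark a shared batch, and these correlations cannot settle it.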
